A study of Mus musculus with 4 samples.

Results

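Semaphorins, plexins and neuropilins are the ligands and receptors of 1 guidance system, and 31 genes of the mouse with such symbols were described here, 20 semaphorins, 9 plexins and 2 neuropilins. They were chosen by symbol alone from the 32285 genes listed for 3 libraries and the 31053 listed for the fourth, and all 31 were listed in each. The study profiled single cells of the mammary gland of WT C57B6 female mice (C57 B6/N in the study's methods) at 3 embryonic days (E13.5, then E14.5, then E15.5) and at birth (P0), with 1 library a stage. Each library came from its own dissection session, in which the mammary rudiments of several embryos and litters were pooled, and cells positive for CD45, CD31 or Ter119 (markers of white blood cells, endothelium and red blood cells) had been sorted away. No treatment, transgene or mutation was involved. Per the study's methods, P0 tissue was dissociated with other enzyme amounts than embryonic tissue, and its red blood cells were lysed. After cells under 5000 unique molecular identifiers (UMIs, 1 per captured transcript) or over 6% mitochondrial UMIs were left out, 1630 cells remained, 235, 76, 816 and 503 in order of stage.

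Semaphorins are secreted or membrane-bound proteins that repel or attract growing axons, migrating cells and vessels. Plexins are the receptors that pass the signal on inside the cell, and neuropilins are co-receptors that most secreted class 3 semaphorins need to reach a plexin A. Neuropilins also bind vascular endothelial growth factors, and class 4, 5, 6 and 7 semaphorins stay attached to the membrane and act on neighbouring cells. In the mammary gland the epithelium grows into a surrounding mesenchyme, so the question asked here was which side carried which ligand and which receptor, and whether that changed up to birth.

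A cell was called epithelium where its UMIs of Epcam, Krt8, Krt18, Krt5 and Krt14 together exceeded those of the collagens Col1a1, Col1a2 and Col3a1, and mesenchyme in the opposite case; 3 cells with equal sums were left out. This gave 98 epithelial and 135 mesenchymal cells at E13.5, then 45 and 31, 532 and 283, and 230 and 273 at the later stages. These same sums set the labels, so their levels describe the split and are no check of it. The keratin and Epcam sum lay between 3269 and 13878 counts scaled to a library of 1e6 UMIs (CPM) in epithelium and between 41.8 and 358 CPM in mesenchyme. The collagen sum lay between 4842 and 74311 CPM in mesenchyme and between 34.3 and 309 CPM in epithelium. Median depth was 16438 to 26725 UMIs a cell in the embryonic groups and 8743 to 9973 at P0. The immune list (5 genes) had 0 to 7 UMIs in each embryonic group, and P0 mesenchyme had 280. The erythroid list (3 genes) had 11135 UMIs in P0 mesenchyme, and 6 of its 273 cells held 3 or more, against at most 20 UMIs in any other group. The endothelial list (5 genes) had 8 to 102 UMIs in a group, with Cdh5 at 0 in 6 of the 8 groups. The pericyte list (4 genes) moved with tissue and stage: it had 90, 50, 103 and 243 UMIs in mesenchyme by stage, with 11, 8, 6 and 34 cells that held 3 or more, and 0 to 86 UMIs in epithelium, with at most 1 such cell. Counts of members were also taken without the cells that held 3 or more UMIs of the erythroid, immune, endothelial and skeletal muscle lists together. They were taken as well without the cells that held 3 or more of the pericyte list. The epithelium held skin as well as gland, and in different amounts by stage. At E13.5 only 22 of its 98 cells scored highest for mammary bud genes, 36 for epidermis and 31 for periderm. Counts were also taken without the cells that held 3 or more UMIs of the epidermal keratins Krt1 and Krt10, which left 82 of 98, 37 of 45, 452 of 532 and all 230 epithelial cells by stage. The ratios of epithelium over mesenchyme are those of this mixture.

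A level is the summed UMIs of a gene over the summed UMIs of a group's cells, in CPM, with an exact 95% Poisson interval in parentheses, and a ratio of levels carries an exact conditional binomial 95% interval. With 1 library a stage, cells are not replicates. No test was made, both kinds of interval cover counting error only, and stage cannot be told apart from library. A gene was called higher in a group by size alone, at 2-fold or more with at least 20 UMIs in both groups together; a group without a UMI was set to 3 counts, which makes the ratio a lower bound. Transcripts were counted at their 3′ ends and no level was divided by gene length, so levels are compared between groups for 1 gene and not between genes.

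Across the 31 genes, both tissues carried ligands and receptors at every stage, and the genes called higher differed between them. Of the members with enough UMIs, 6, 5, 8 and 8 were higher in neither tissue, in order of stage. At E13.5, 7 of the 23 members with enough UMIs were higher in epithelium and 10 in mesenchyme, where 10.3% and 21.9% of all 10630 genes tested were. At E14.5 the counts were 7 and 6 of 18 against 14.7% and 17.5% of all genes. At E15.5 they were 8 and 9 of 25 against 16.8% and 22.5%, and at P0 5 and 9 of 22 against 24.7% and 18.9%. Read against these shares, members on the epithelial side were more frequent than genes at large at the 3 embryonic stages and not at P0, and members on the mesenchymal side were more frequent at all 4. The genes at large were not matched to the members for level. With a sum of at least 50 UMIs, 3 and 5 members were called at E13.5, and the share of all genes was not taken at that setting. The median log2 ratio of epithelium over mesenchyme was -0.18, 0.57, -0.31 and -0.63 over the members tested and -0.18, 0.02, -0.10 and 0.30 over all genes tested, in order of stage. Over the 4 stages 9 members were higher in epithelium at 2 or more stages, 9 were higher in mesenchyme at 2 or more stages, and 3 of the first 9 (Sema3c, Sema3d and Plxnd1) were higher in mesenchyme at P0.

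**Figure D1:**
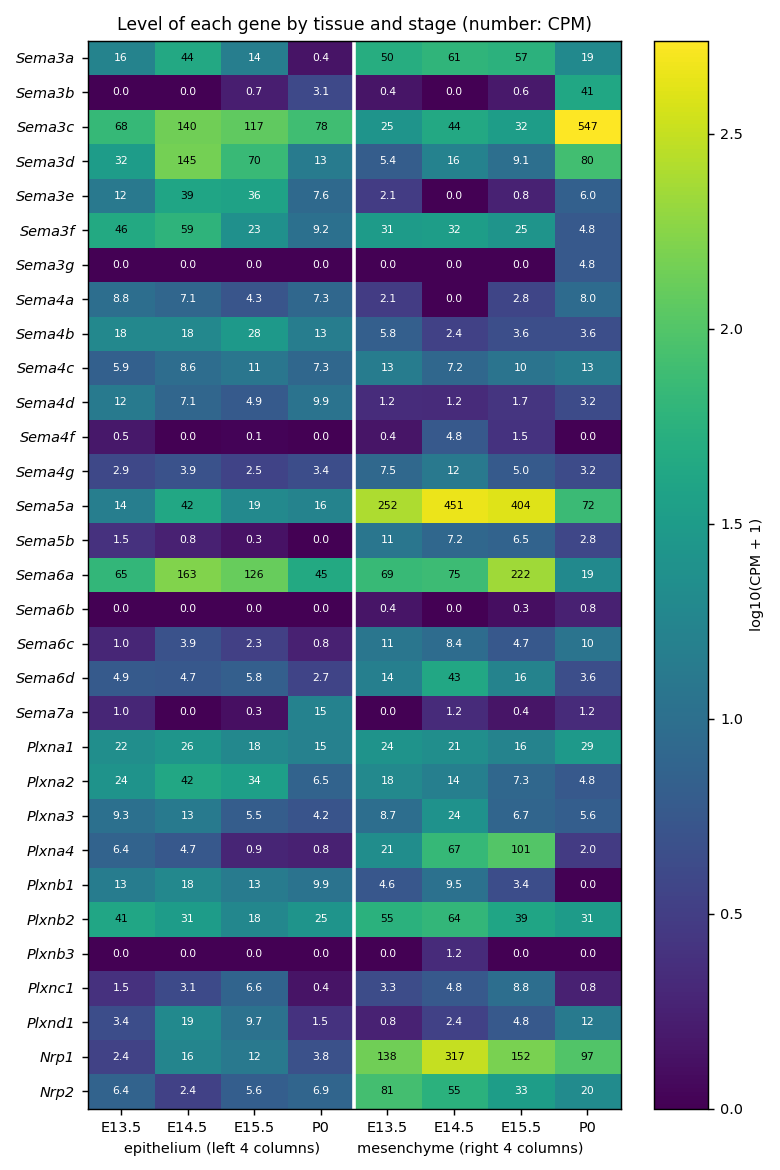
Level of each of the 31 genes (rows) in epithelium and mesenchyme by stage (columns), with the CPM printed and log10(CPM + 1) as colour; each cell of the map is 1 library's tissue, with no replicate. The rows of Sema5a and Nrp1 are brightest in the embryonic mesenchyme columns, that of Sema3e in embryonic epithelium, and the rows of Sema3c and Sema3b at P0 mesenchyme.

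Among the ligands of epithelium, Sema3c, a secreted class 3 semaphorin best known from heart outflow and vessel development, stood at 68.1, 139.8, 117 and 77.6 CPM in epithelium from E13.5 to P0. In mesenchyme its level was 25.3, 44.2, 32.2 and 547 CPM. The epithelial level was thus the higher at the 3 embryonic stages and the lower at P0, where the mesenchymal level was by far its highest in these libraries. Epithelium over mesenchyme the ratio was 2.69 (1.98-3.69), 3.17 (2.21-4.64) and 3.63 (3.16-4.18) at the embryonic stages in turn. At P0 mesenchyme was 7.05-fold (6.08-8.21) higher. Without the pericyte-list cells the log2 ratio at E14.5 and E15.5 was 2.27 and 2.33 in place of 1.66 and 1.86. At E15.5 74.4% of epithelial and 19.1% of mesenchymal cells held a Sema3c UMI at near-equal median depth, and at P0 36.5% and 68.5% did.

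Sema3d, which guides neural crest cells and endothelium, kept the same order as Sema3c. Its level was 31.8, 145, 70.2 and 12.6 CPM in epithelium and 5.40, 15.51, 9.09 and 80.2 CPM in mesenchyme, by stage. The epithelial ratio was 5.90 (3.22-11.7), 9.37 (5.34-17.9) and 7.72 (6.01-10.1) in the embryo, and at P0 mesenchyme was 6.35-fold (4.38-9.48) higher. Both genes lay higher in epithelium before birth and in mesenchyme at birth. In E15.5 epithelium 282 of 532 cells (53.0%) held UMIs of both genes, where 396 held Sema3c and 351 Sema3d. In P0 mesenchyme 85 of 273 cells held both, of 89 that held Sema3d and 187 that held Sema3c. An overlap beyond the shares of the single genes was not tested.

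Sema3e, the ligand that binds Plxnd1 without a neuropilin, was the most one-sided of the epithelial ligands at E15.5. It stood at 11.8, 39.3, 36.4 and 7.65 CPM in epithelium, and mesenchyme had 2.08, 0, 0.826 and 5.98 CPM, from 5, 0, 6 and 15 UMIs. The epithelial level was 5.66-fold (2.12-19.0), at least 11.0-fold and 44.1-fold (20.1-121) higher at the embryonic stages in turn. At P0 the ratio was 1.28 (0.622-2.68), under the fold used, so the difference seen in the embryo was not seen there.

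Sema4b and Sema4d are membrane-bound class 4 ligands, and both were on the epithelial side. Sema4b measured 18.1, 18.1, 28.4 and 13.4 CPM in epithelium and 5.81, 2.39, 3.58 and 3.59 CPM in mesenchyme. It was the only member called higher in epithelium at all 4 stages, by 3.12 (1.65-6.24), 7.57 (1.87-66.2), 7.93 (5.33-12.3) and 3.73 (1.76-8.82) times. The E14.5 call rested on 25 UMIs and was lost without the cell that held 6 of the 23 in epithelium, as fewer than 20 UMIs were left. Sema4d, the ligand of Plxnb1, measured 12.2, 7.07, 4.90 and 9.94 CPM in epithelium and 1.25, 1.19, 1.65 and 3.19 CPM in mesenchyme. Its ratio was 9.83 (3.00-50.9) at E13.5, then 2.96 (1.59-6.01) at E15.5, then 3.12 (1.37-7.97) at P0, while E14.5 had only 10 UMIs in all, and without the cells with Krt1 and Krt10 the E13.5 sum fell under 20 UMIs and its call was lost.

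Sema6a, a membrane-bound ligand of Plxna2 and Plxna4, was present in both tissues, and which had more of it differed by stage. In epithelium it measured 64.7, 163, 126 and 45.1 CPM and in mesenchyme 68.5, 75.2, 222 and 18.7 CPM. Epithelium was higher at E14.5, by 2.17-fold (1.63-2.93), and at P0, by 2.41-fold (1.70-3.45). At E13.5 the ratio was 0.944 (0.745-1.19), and at E15.5 mesenchyme had 1.76 times (1.64-1.88) the epithelial level, which lies under the 2-fold used. The E13.5 ratio is that of a mixture with unlike levels. Within E13.5 epithelium Sema6a measured 165 CPM in bud, 20.3 CPM in epidermis and 63.6 CPM in periderm cells, beside 68.5 CPM in mesenchyme. The part of the skin share in the differences between stages was not tested. Without the pericyte-list cells the E14.5 log2 ratio went from 1.12 to 0.80 and its call was lost, and without the cells with Krt1 and Krt10 it was 1.56.

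On the mesenchymal side Sema5a, a transmembrane semaphorin with thrombospondin repeats, was the higher at all 4 stages. It stood at 252, 451, 404 and 72.2 CPM in mesenchyme and at 13.7, 42.4, 18.5 and 15.7 CPM in epithelium. The mesenchymal level was 18.4-fold (12.6-27.9), 10.6-fold (7.98-14.4), 21.8-fold (19.2-24.8) and 4.60-fold (3.26-6.63) higher, in order of stage. At E15.5 97.2% of mesenchymal cells held a Sema5a UMI, and 30.3% of epithelial cells did. Median depth was close in both (24696 and 24376 UMIs), and the part of free RNA in the epithelial share was not tested.

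Sema3a, the class 3 ligand that acts through Nrp1 and a plexin A to repel axons, measured 50.2, 60.9, 56.9 and 19.1 CPM in mesenchyme. In epithelium it measured 15.7, 44.0, 13.7 and 0.382 CPM, the last from 1 UMI. Mesenchyme was 3.21-fold (2.16-4.89) higher at E13.5 and 4.15-fold (3.49-4.94) higher at E15.5, while at E14.5 the ratio of mesenchyme over epithelium was 1.38 (0.928-2.06). At P0 48 UMIs in mesenchyme stood against the 1 in epithelium.

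Sema5b, Sema6c and Sema6d were lower in level but mesenchymal wherever enough UMIs were counted. Sema5b, the paralog of Sema5a, measured 10.8, 7.16, 6.47 and 2.79 CPM in mesenchyme and 1.47, 0.785, 0.350 and 0 CPM in epithelium, and at E15.5 it was 18.5-fold (7.39-59.6) higher in mesenchyme. Sema6c measured 10.8, 8.35, 4.68 and 10.4 CPM in mesenchyme and 0.980, 3.93, 2.31 and 0.765 CPM in epithelium. Its E15.5 ratio, 2.03 (1.22-3.38) in favour of mesenchyme, lay just past the fold used. Sema6d, a ligand of Plxna1 with a role in heart development, measured 14.1, 43.0, 15.7 and 3.59 CPM in mesenchyme and 4.90, 4.71, 5.81 and 2.68 CPM in epithelium, with 9.12-fold (3.80-26.5) more in mesenchyme at E14.5.

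Sema3f, the class 3 ligand of Nrp2, was on neither side under the main settings. At P0 it was called higher in epithelium with cells thinned to 5000 UMIs and with CPM averaged over cells. The same call was made without the cell with the most UMIs and without the pericyte-list cells. It measured 45.6, 58.9, 22.6 and 9.18 CPM in epithelium and 31.1, 32.2, 24.9 and 4.79 CPM in mesenchyme. The ratio lay between 0.906 (0.753-1.09) at E15.5 and 1.92 (0.923-4.21) at P0, and apart from E15.5 the intervals also took in a 2-fold difference.

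The co-receptors were mesenchymal at every stage. Nrp1, which pairs with plexins for Sema3a and binds Vegfa, stood at 138, 317, 152 and 97.3 CPM in mesenchyme and at 2.45, 16.5, 11.8 and 3.82 CPM in epithelium. The mesenchymal level was 56.5-fold (24.0-175), 19.2-fold (12.3-31.6), 12.9-fold (10.9-15.3) and 25.4-fold (13.6-53.7) higher, by stage. Nrp2, which prefers Sema3f and Vegfc, measured 81.4, 54.9, 32.8 and 19.9 CPM in mesenchyme and 6.37, 2.36, 5.60 and 6.88 CPM in epithelium. Its mesenchymal excess was 12.8-fold (7.30-24.4), 23.3-fold (7.49-117), 5.86-fold (4.53-7.64) and 2.90-fold (1.66-5.27). The mesenchymal Nrp2 level was lower at each later stage in these 4 libraries. The 2 neuropilins together gave 184 CPM (175-194) in E15.5 mesenchyme and 17.4 CPM (15.3-19.6) in E15.5 epithelium.

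Plxna4, a plexin A that works with Nrp1 for Sema3a, measured 20.8, 66.8, 101 and 1.99 CPM in mesenchyme by stage. Epithelium had 6.37, 4.71, 0.909 and 0.765 CPM. The mesenchymal level was 3.26-fold (1.74-6.54), 14.2-fold (6.12-40.3) and 111-fold (64.4-209) higher before birth, and at P0 only 7 UMIs were counted in both tissues together. In E15.5 mesenchyme 193 of 283 cells held a Plxna4 UMI, and 162 of them also held Nrp1. Nrp1 was held by 235 of all 283 cells (83.0%), and an overlap beyond the shares of the single genes was not tested. In P0 mesenchyme 110 of 273 cells held Nrp1 and 5 held Plxna4, 1 of them both. With every cell thinned to 5000 UMIs the share with Plxna4 was 34.6% at E15.5 and 1.47% at P0, so the low P0 share was also seen at equal depth. An antisense gene, Plxna4os3, overlaps an exon of Plxna4 and had 0 UMIs in every group.

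Plxna2, Plxnb1 and Plxnd1 were the receptors on the epithelial side. Plxna2, the receptor of Sema6a, measured 24.5, 42.4, 34.4 and 6.50 CPM in epithelium and 18.3, 14.3, 7.30 and 4.79 CPM in mesenchyme. It was 2.96-fold (1.56-6.08) higher in epithelium at E14.5 and 4.72-fold (3.55-6.38) higher at E15.5, and 1 cell held 33.3% of its UMIs in E14.5 epithelium. Plxnb1, the receptor of Sema4d, measured 13.2, 18.1, 12.7 and 9.94 CPM in epithelium and 4.57, 9.55, 3.44 and 0 CPM in mesenchyme. Its epithelial excess was 2.90-fold (1.39-6.47) at E13.5, 3.70-fold (2.43-5.86) at E15.5 and at least 8.31-fold at P0. Plxnb1 and its ligand Sema4d were therefore both called higher in this mixed epithelium at E13.5, E15.5 and P0. The E13.5 call of Sema4d was lost without the cells with Krt1 and Krt10. At E13.5 Sema4d measured 7.98, 15.8 and 7.06 CPM in bud, epidermis and periderm cells, from 3, 14 and 4 UMIs. Plxnb1 measured 13.3, 14.6 and 10.6 CPM there, from 5, 13 and 6 UMIs. An antisense gene, Gm7628, overlaps an exon of Plxnb1.

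Plxnd1, the receptor of Sema3e and a regulator of vessel patterning, measured 3.43, 18.8, 9.65 and 1.53 CPM in epithelium and 0.830, 2.39, 4.82 and 12.4 CPM in mesenchyme. Epithelium was higher by 7.90-fold (1.96-69.0) at E14.5, where mesenchyme had 2 UMIs, and by 2.00-fold (1.37-2.99) at E15.5, at the edge of the fold used and lost without the pericyte-list cells (log2 ratio 0.98). At P0 mesenchyme was 8.08-fold (2.86-31.5) higher, with 31 UMIs against 4. In the P0 mesenchyme the endothelial list had 88 UMIs and 8 cells with 3 or more, and Plxnd1 was still called higher in mesenchyme without these cells and without the 34 pericyte-list cells.

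Plxnb2, a widely used plexin, measured 54.8, 64.4, 39.4 and 31.1 CPM in mesenchyme and 40.7, 31.4, 17.7 and 25.2 CPM in epithelium. Mesenchyme was higher by 2.05-fold (1.34-3.17) at E14.5 and 2.23-fold (1.87-2.65) at E15.5. The E14.5 call was lost without the cells of the 4 other lists, without those of the pericyte list (log2 ratio of epithelium over mesenchyme -0.32 in place of -1.04) and without those with Krt1 and Krt10. It was also lost with Krt5 and Krt14 out of the epithelial sum, with CPM averaged over cells, with thinned cells and with a fold of 3. The E15.5 call of Sema6c was lost without the cells of the 4 lists or the pericyte list. A UMI minimum of 3000, thinned cells and a fold of 3 each lost it too.

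Of the 12 members not described so far, 4 stayed under 20 UMIs in both tissues together at every stage. Plxnb3 had 1 UMI in all and Sema6b at most 2 in a group, Sema4f at most 11, and Sema3g had 12 UMIs in P0 mesenchyme and none elsewhere. Sema3b, a secreted ligand of class 3, had no UMI at E14.5 and stood between 0 and 0.700 CPM in the embryonic groups, and at P0 it measured 41.5 CPM (33.9-50.3) in mesenchyme and 3.06 CPM in epithelium. Sema7a, the lipid-anchored ligand of Plxnc1 and integrins, was its epithelial counterpart: it had at most 4 UMIs in each embryonic group, and at P0 it measured 15.3 CPM (10.9-20.8) in epithelium against 1.20 CPM in mesenchyme, 12.8-fold (4.07-64.6) higher. Plxna1 and Plxna3 were on neither side at any stage under the main settings, at 14.9 to 28.7 CPM and 4.21 to 23.9 CPM. Some other settings called Plxna1 higher in mesenchyme at E13.5 and P0 and Plxna3 at E14.5. Sema4a was higher in epithelium at E13.5, and Sema4c and Sema4g were higher in mesenchyme at E13.5. Under the main settings each was called at 1 stage only, with levels of 0 to 13.3 CPM over all groups. Some other settings also called Sema4g higher in mesenchyme at E15.5 and Sema4c at P0. The E13.5 calls of Sema4a and Sema4g were lost without the cell with the most UMIs of the gene. Those of Sema4a and Sema4c were lost without the cells with Krt1 and Krt10. With Sema4a and Sema4d lost, 5 members were left higher in E13.5 epithelium in place of 7. With Sema4c lost, 9 were left higher in E13.5 mesenchyme in place of 10. The Sema4c call was also lost when CPM was averaged over cells. Plxnc1 measured 0.382 to 8.82 CPM, on neither side at E15.5, and was called higher in mesenchyme there once cells were thinned.

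**Figure D2:**
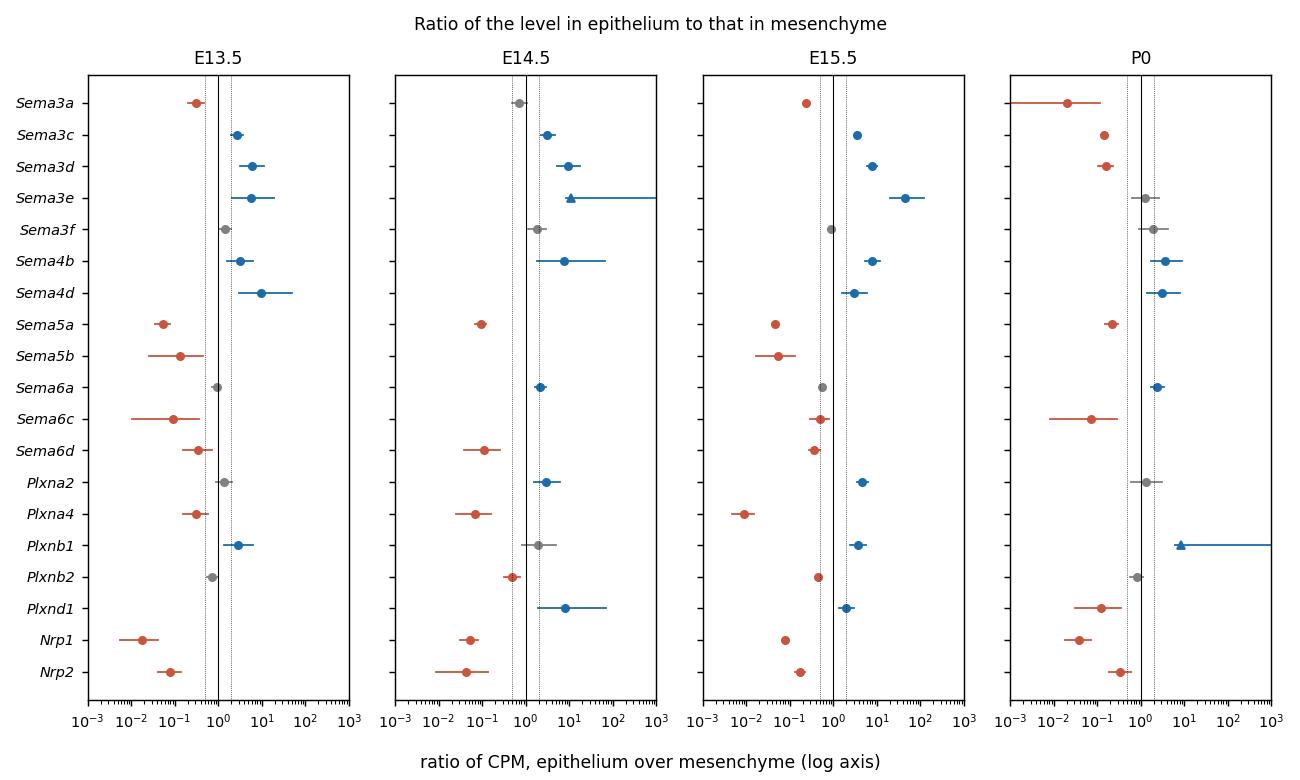
Ratio of the level in epithelium to the level in mesenchyme (log axis) at each stage for the 19 members described with full values; points are ratios, lines exact 95% intervals for counting error, cut at the ends of the axis, triangles lower bounds with the empty group set to 3 counts, and dotted lines the 2-fold limits (blue higher in epithelium, red in mesenchyme, grey neither; members under 20 UMIs left out). Sema3c and Sema3d sit right of 1 before birth and left of 1 at P0. Plxnd1 sits right of 1 at E14.5 and E15.5 and left of 1 at P0, with no point at E13.5. Nrp1, Nrp2 and Sema5a sit left of 1 in every panel.

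Sema3d, Sema3a, Sema3e and Sema3c lie in that order on 1 stretch of chromosome 5, between 12383385 and 17730268 of GRCm38 (5.35 Mb, GENCODE M21), with 17 other protein-coding genes between the ends. Of these neighbours Sema3d, Sema3e and Sema3c were higher in epithelium at the 3 embryonic stages, and Sema3a was higher in mesenchyme at E13.5 and E15.5 and on neither side at E14.5. The bases before the starts of 4 members are given because these members lay on different sides: Sema3d and Sema3e were higher in embryonic epithelium, Sema5a in mesenchyme, and Sema7a in P0 epithelium. The sequences are RefSeq windows of GRCm38.p6, plus strand, read 5′ to 3′ and ended before the first annotated base of the gene, at chr5:12382916-12383165, chr5:14025026-14025275, chr15:32244563-32244809 and chr9:57939862-57940111. Only the Sema3d window stops short of the GENCODE start of its gene, which lies at 12383385, and the bases between are not given. Capitals mark GGGCGG or its reverse complement CCGCCC (the GC box, the core letters bound by Sp1) and CACCTG or its reverse complement CAGGTG (an E-box of the kind bound by Snail and Zeb factors).
Sema3d: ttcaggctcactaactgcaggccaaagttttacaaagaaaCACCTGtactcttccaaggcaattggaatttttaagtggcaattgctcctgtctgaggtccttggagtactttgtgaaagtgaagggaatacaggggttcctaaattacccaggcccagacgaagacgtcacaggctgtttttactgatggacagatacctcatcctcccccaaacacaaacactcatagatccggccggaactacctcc
Sema3e: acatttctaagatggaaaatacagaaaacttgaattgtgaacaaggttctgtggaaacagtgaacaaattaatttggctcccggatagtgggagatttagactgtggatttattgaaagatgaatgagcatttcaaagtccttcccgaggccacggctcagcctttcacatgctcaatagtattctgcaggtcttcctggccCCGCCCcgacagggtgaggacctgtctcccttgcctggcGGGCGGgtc
Sema5a: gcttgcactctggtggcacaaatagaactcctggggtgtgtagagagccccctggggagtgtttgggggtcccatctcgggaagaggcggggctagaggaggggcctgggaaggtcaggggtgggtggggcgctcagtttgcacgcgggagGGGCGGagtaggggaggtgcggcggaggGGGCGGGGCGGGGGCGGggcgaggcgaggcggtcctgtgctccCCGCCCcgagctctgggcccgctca
Sema7a: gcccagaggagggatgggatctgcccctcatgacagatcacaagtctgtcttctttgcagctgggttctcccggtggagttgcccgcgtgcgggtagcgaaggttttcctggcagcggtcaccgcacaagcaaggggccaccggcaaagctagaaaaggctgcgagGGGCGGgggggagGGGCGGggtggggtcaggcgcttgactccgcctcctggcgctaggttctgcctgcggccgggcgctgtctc
Sema3d had 0 GC boxes and 1 E-box in its 250 bases, Sema3e and Sema7a had 2 GC boxes each, and Sema5a had 5 in 247 bases, 3 of them in 1 run of capitals. G and C made up 46.8%, 48.0%, 71.7% and 66.4% of the bases of Sema3d, Sema3e, Sema5a and Sema7a.

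RefSeq windows of 300 bases, from 250 before to 50 after the start, were matched for 26 of the 31 members, 37 windows in all. GGGCGG was in 27 of the 37 (73.0%) and in 35.7% of all 32851 windows. CACCTG was in 5 of the 37 and in 20.2% of all, and the TATA box TATAAA was in 0 of the 37 and in 13.6% of all. CACGTG was in 8.11% of the members' windows and 7.15% of all; both strands were searched each time. The members' windows had a median GC content of 63.7% (41.3% to 75.7%), and all windows had 52.7%, and the part of base composition in the GC box share was not tested.

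In mesenchyme, P0 was compared with E13.5, for ligands and receptors alike. Of 23 members with enough UMIs, 6 were higher and 10 lower in P0 than in E13.5 mesenchyme, where 14.3% and 35.8% of all 10876 genes were. The 6 and 10 were 26.1% and 43.5% of the members tested, and the second share lay near that of all genes. The median log2 ratio was -0.70 over the members and -0.59 over all genes tested, so the members as a list lay close to all genes. The members higher at P0 were Sema3b, Sema3c, Plxnd1, Sema3d, Sema4a and Sema3e. Sema3c was 21.6-fold (16.7-28.4) higher, Sema3d 14.8-fold (8.49-28.4) and Plxnd1 14.9-fold (3.79-128). Sema3b rested on 104 UMIs at P0 and 1 at E13.5. Sema3e, at 2.88-fold (0.995-10.1) from 15 and 5 UMIs, was no longer called once cells with other lists' markers were left out. Sema3e and Sema4a were also lost without the cell with the most UMIs of each gene, where under 20 UMIs remained, which left 4 members higher; that cell held 5 of the 20 Sema4a UMIs at P0. Without the pericyte-list cells the counts stayed at 6 and 10. On the lower side were Sema3a, Sema3f, Sema4g, Sema5a, Sema5b, Sema6a, Sema6d, Nrp2, Plxna2 and Plxna4. Sema5a was 3.50-fold (2.96-4.15) lower at P0, Sema3f 6.51-fold (3.51-13.2), Nrp2 4.08-fold (2.98-5.69) and Plxna4 10.4-fold (4.18-33.5). Nrp1, at 0.704 (0.594-0.833) of its E13.5 level, stayed within the fold. The class 3 sum in mesenchyme was 115, 153, 125 and 703 CPM by stage, and Sema3c made up 547 of the last.

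In epithelium, P0 was compared with E15.5, the library with the most cells. Of 24 members, 2 were higher and 12 lower at P0, where 15.0% and 18.5% of all 12247 genes tested were, so the share of members that were lower was above the share of all genes. The median log2 ratio was -0.84 over the members and -0.11 over all genes. Sema7a was 54.7-fold (19.8-210.4) higher, and Sema4d 2.03-fold (1.24-3.23) higher. Without the cell with most Sema4d UMIs the call for Sema4d was lost. Lower at P0 were Sema3d by 5.56-fold (3.93-8.12), Sema3e by 4.76-fold (3.05-7.87), Plxna2 by 5.29-fold (3.27-9.16), Sema6a by 2.80-fold (2.32-3.40) and Sema3f by 2.46-fold (1.63-3.90). Sema3a was lower as well, with 1 UMI at P0 against 196 at E15.5, and so were Sema4b, Sema6c, Sema6d, Nrp1, Plxnc1 and Plxnd1. Sema3c at 0.664 (0.571-0.768) and Plxnb1 at 0.781 (0.497-1.18) of the E15.5 level stayed within the fold. Epidermal keratins moved with this comparison: Krt1 and Krt10 together reached 827 CPM in the 173 luminal-list cells at E15.5 and at most 13.7 CPM on any side at P0. Without the cells that held 3 or more of their UMIs (452 of 532 left at E15.5, all 230 at P0) the same 2 members were higher and the same 12 lower. This filter takes out only part of the skin cells. At E13.5 it left 82 of 98 epithelial cells, of which only 22 of the 98 scored highest for mammary bud genes. The part of the remaining skin cells in this comparison was not tested. Sema6c rested on 2 UMIs at P0 and was lost without the cell with the most. The E15.5 matrix header names another Cell Ranger version (3.1.0) than the other 3 (6.0.0). The E15.5 library also lists 31053 genes, where P0 lists 32285. Neither can be told apart from stage.

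**Figure D3:**
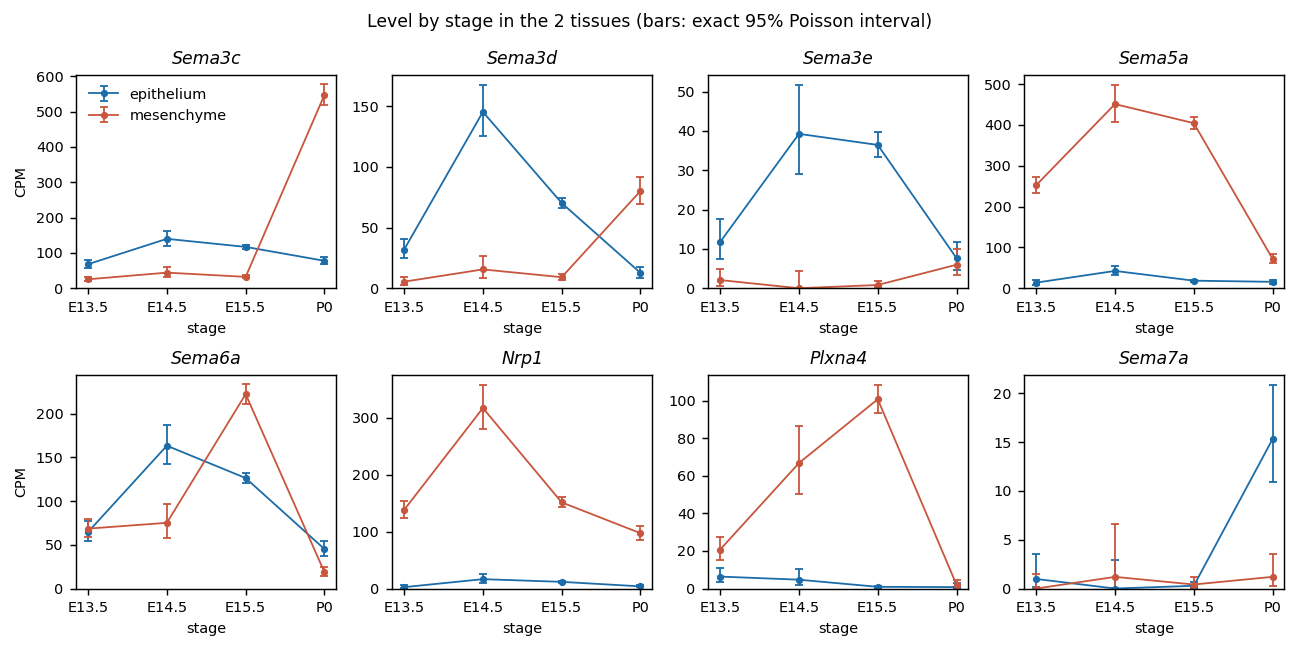
Level in CPM (vertical axes, each from 0) by stage for 8 members in epithelium (blue) and mesenchyme (red); points are the level in 1 library's tissue and bars exact 95% Poisson intervals for counting error. Sema3c and Sema3d cross between E15.5 and P0, Plxna4 in mesenchyme goes from 101 CPM at E15.5 to 1.99 CPM at P0, and Sema7a is near 0 until P0 epithelium.

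Within each tissue, cells were ranked by the mean z-score of short marker lists and placed with the list that scored highest above 0. The median score for any other list was between -0.95 and -0.19 on every side. These are ranges of a score and not cell types, and none of the markers is a semaphorin, plexin or neuropilin. In E13.5 mesenchyme 46 cells scored highest for the sub-epithelial list (Esr1, Lef1, Crabp1, Vcan) and 62 for the dermal list (Plagl1, Cdkn1c, Fgf10, Fzd4), with 5 and 9 within 0.25 of the cut. Of 15 members 3 were higher on the sub-epithelial side and 5 on the dermal side, where 4.58% and 6.43% of all genes were. The 2 neuropilins were on opposite sides: Nrp1 measured 273 CPM (237-313) in sub-epithelial and 67.6 CPM (53.7-83.9) in dermal cells, and Nrp2 measured 22.4 CPM (13.1-35.9) and 120.3 CPM (102-141). Plxna4 went with Nrp1, at 52.7 and 4.94 CPM, and so did Sema6d, at 38.2 and 4.12 CPM. Sema3a went with Nrp2, at 23.7 CPM in sub-epithelial and 65.9 CPM in dermal cells, and so did Sema3c at 5.27 and 29.7 CPM, Plxna1 at 10.5 and 29.7 CPM and Plxna2 at 9.23 and 23.9 CPM. Each of the 8 was a difference of 2-fold or more between cells of 1 library.

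In E15.5 mesenchyme the same lists placed 155 cells on the sub-epithelial and 90 on the dermal side, with 3 and 4 near the cut. Of 22 members 3 were higher on the sub-epithelial side and 5 on the dermal side, against 8.77% and 7.34% of all genes. Plxna4 measured 133 CPM (123-144) and 36.5 CPM (28.5-46.1), 3.65-fold (2.84-4.74) higher on the sub-epithelial side as at E13.5, and Sema6d measured 18.2 and 8.34 CPM. Sema3c measured 6.29 CPM (4.18-9.10) and 89.2 CPM (76.3-104), 14.2-fold (9.46-22.0) higher on the dermal side. Leaving out the pericyte-list cells had raised the E15.5 ratio of epithelium over mesenchyme for Sema3c. The sides were not scored again without these cells, and their part in this difference was not tested. Sema3d at 4.05 and 16.2 CPM, Sema3f at 19.1 and 40.2 CPM, Sema6c at 2.92 and 8.86 CPM and Plxna2 at 5.39 and 11.5 CPM were dermal too, the last not with the 0.25 margin (1.73-fold). Nrp1, at 148 CPM (137-160) and 154 CPM (137-172), no longer differed by 2-fold between the sides, and Sema4g was called sub-epithelial on 27 and 5 UMIs, 2.33-fold (0.884-7.74). The cell cycle genes Top2a and Mki67 together measured 644 CPM on the sub-epithelial and 154 CPM on the dermal side. They moved with these differences, and their part in them was not tested.

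At P0 the mesenchyme was scored for Pi16, Dpp4 and Wnt2 (84 cells), for Col15a1, Fabp4, Pparg and Aoc3 (80 cells) and for Eln, Mfap4 and Mgp (73 cells), with 5, 12 and 14 cells near the cut. Between the Pi16 and Col15a1 sides, 4 of 11 members were higher on each, where 9.71% and 8.11% of all genes were. Sema3c measured 1114 CPM (1045-1185) on the Pi16 side, 124 CPM (99.3-154) on the Col15a1 side and 351 CPM (306-401) on the Eln side, and all 84 Pi16 cells held a UMI. The study itself linked Sema3c to Pi16 cells of this library, so this gene is not independent evidence. Sema3d followed the same order, at 154, 16.1 and 63.9 CPM, and so did Sema3b, at 85.2, 7.31 and 19.2 CPM. Nrp1 had the opposite order, at 37.0 CPM (25.5-52.0), 165 CPM (136-199) and 131 CPM (104-163), and Nrp2 measured 11.2, 35.1 and 19.2 CPM. Thus 3 class 3 ligands were highest on the Pi16 side, and both neuropilins were lowest there. For Nrp2 the Eln side was only 1.71-fold (0.677-4.42) above the Pi16 side, from 12 and 10 UMIs, which lies under the fold used. Neither neuropilin was 2-fold higher on the Col15a1 than on the Eln side, at 1.26-fold (0.941-1.70) for Nrp1 and 1.83-fold (0.881-4.02) for Nrp2. Sema3a, at 23.6, 7.31 and 25.6 CPM, was lowest on the Col15a1 side. Plxnd1 (10.1, 23.4 and 4.79 CPM) and Sema6a (12.3, 26.3 and 12.8 CPM) rested on 28 and 37 UMIs over the 3 sides, and the Col15a1 call of Plxnd1 over Pi16 was lost when the 0.25 margin was asked for.

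**Figure D4:**
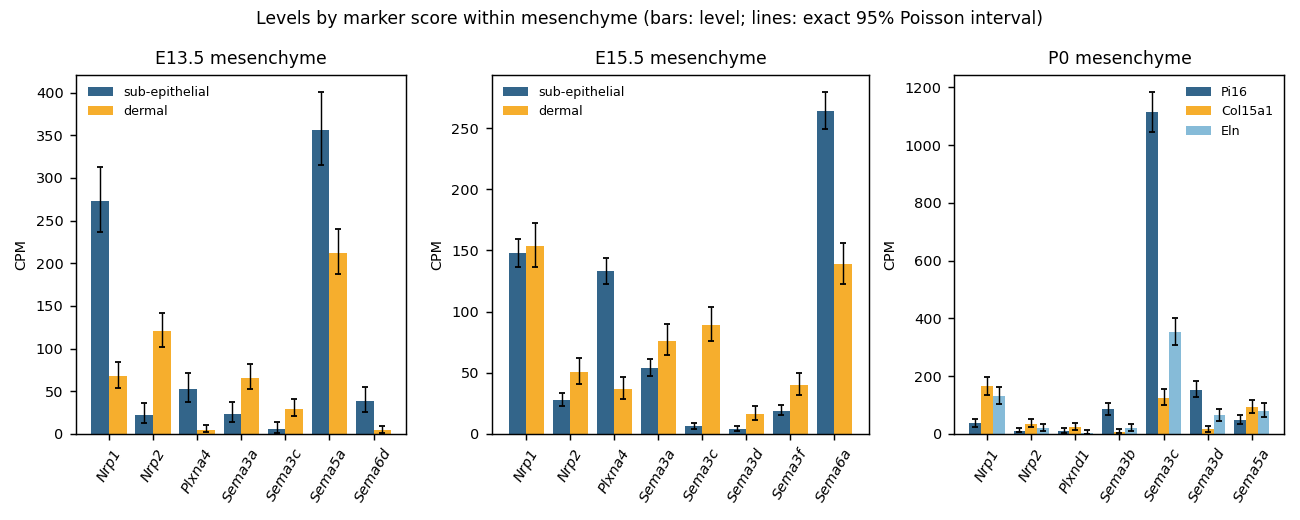
Level in CPM (vertical axes, each from 0) of 7, 8 and 7 members by marker score in E13.5, E15.5 and P0 mesenchyme; bars are levels summed over the cells of a side within 1 library and lines exact 95% Poisson intervals for counting error. Nrp1 and Nrp2 stand on opposite sides at E13.5, Sema3c is higher on the dermal side at E15.5 (pericyte-list cells left in), and at P0 Sema3c reaches 1114 CPM on the Pi16 side, where Nrp1 is lowest.

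In E13.5 epithelium 22 cells scored highest for mammary bud genes, 36 for epidermis and 31 for periderm, the outer layer of the embryonic skin, with 2, 7 and 2 near the cut. Sema3c measured 130.3 CPM (96.4-172) in bud, 78.8 CPM (61.4-99.5) in epidermis and 1.77 CPM in periderm cells, the last from 1 UMI. Sema3d measured 63.8, 33.8 and 3.53 CPM. Both ligands were thus present in bud and epidermis and nearly missing in periderm. Sema6a measured 165 CPM (126-211) in bud, 20.3 CPM (12.01-32.0) in epidermis and 63.6 CPM (44.5-88.0) in periderm cells, and Sema5a measured 42.5, 6.75 and 7.06 CPM, so both were highest in bud cells. Plxnb2 was highest in periderm, at 77.7 CPM (56.5-104), against 23.9 and 31.5 CPM. Sema3e had 10, 1 and 12 UMIs in bud, epidermis and periderm cells, and Sema4b measured 39.9, 19.1 and 1.77 CPM.

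In E15.5 epithelium 217 cells scored highest for a basal list (Cxcl14, Pthlh, Ndnf, Lmo1, Wnt10b, Sostdc1) and 173 for a luminal list (Anxa1, Ly6d, Lgals3, Plet1, Krtdap, Grhl3), with 15 and 13 near the cut and 142 in neither. The luminal-list cells held 827 CPM of the epidermal keratins Krt1 and Krt10 and the basal-list cells 31.5 CPM, so the luminal list also gathered cells with epidermal keratins. Of 23 members 6 were higher in basal-list cells and 0 in luminal-list cells, where 10.5% and 4.67% of all genes were. These were Sema6d (10.3 and 1.81 CPM), Sema4d (6.61 and 2.21 CPM), Sema4c (16.5 and 5.83 CPM), Sema3a (17.6 and 7.03 CPM), Plxnb1 (16.5 and 7.03 CPM) and Sema3d (87.3 and 42.4 CPM). Sema4d and its receptor Plxnb1 were thus on the same side within the epithelium of E15.5. At P0 the basal-list cells could not be compared for either gene, as each pair of sides with them held under 20 UMIs. There Plxnb1 measured 3.099, 13.7 and 8.82 CPM in basal, luminal progenitor and mature luminal cells, from 1, 14 and 8 UMIs. Sema4d measured 6.20, 15.7 and 4.41 CPM in the same order, from 2, 16 and 4 UMIs. Sema3c measured 132 CPM (123-141) and 89.4 CPM (81.3-98.1), Sema6a 138 and 108 CPM, and Sema3e 22.8 CPM (19.0-27.0) and 34.0 CPM (29.0-39.5), which had the other order but less than 2-fold. Without the cells that held 3 or more UMIs of Krt1 and Krt10, 200 basal-list and 116 luminal-list cells were left, and Sema3d was no longer called at 1.87-fold (1.55-2.27) while the other 5 were.

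At P0 the epithelium gave 30 cells for a basal list of contractile genes (Acta2, Myh11, Cnn1, Mylk), 99 for a luminal progenitor list and 63 for a mature luminal list, with 5, 15 and 9 near the cut. Sema5a, mesenchymal in every library, was a basal-list gene within this epithelium, at 102 CPM (70.4-144) against 1.96 and 0 CPM, from 33, 2 and 0 UMIs. Sema3c measured 167 CPM (126-218) in basal, 83.3 CPM (66.5-103) in luminal progenitor and 37.5 CPM (26.0-52.4) in mature luminal cells, and Sema6a measured 89.9, 50.9 and 24.2 CPM in the same order. Sema7a and Sema4b were highest in the mature luminal cells: Sema7a measured 3.099, 4.90 and 36.4 CPM (25.0-51.1 for the last), and Sema4b 6.20, 4.90 and 26.5 CPM. Sema4d measured 6.20, 15.7 and 4.41 CPM, highest in luminal progenitor cells, from 22 UMIs, too few once the 0.25 margin was asked for. Top2a and Mki67 together measured 470 CPM in mature luminal, 112 CPM in basal and 22.5 CPM in luminal progenitor cells, and their part in these differences was not tested.

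**Figure D5:**
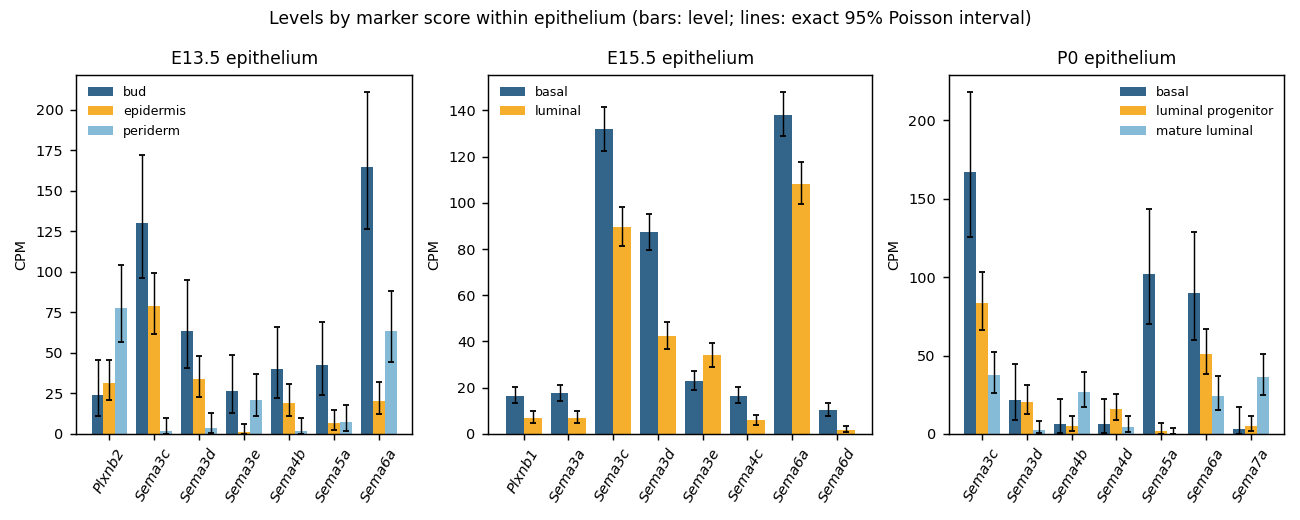
Level in CPM (vertical axes, each from 0) of 7, 8 and 7 members by marker score in E13.5, E15.5 and P0 epithelium; bars are levels summed over the cells of a side within 1 library and lines exact 95% Poisson intervals for counting error. Sema3c is nearly missing in E13.5 periderm cells, and at P0 Sema5a stands only with the basal list and Sema7a with the mature luminal list.

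Of 36 genes that act with or below these receptors, 30 had enough UMIs at E15.5, and 6 of them were higher in epithelium and 10 in mesenchyme, beside 16.8% and 22.5% of all genes. At E13.5 4 and 7 of 26 were, beside 10.3% and 21.9%, at E14.5 3 and 6 of 20, beside 14.7% and 17.5%, and at P0 7 and 9 of 29, beside 24.7% and 18.9%. The 4 with the largest epithelial ratio at E15.5 were Dpysl5, a collapsin response mediator, at 8.57-fold (4.23-20.3), Met, the scatter factor receptor that couples to plexin B, at 8.03-fold (6.25-10.5), Flt1, a Vegfa receptor, at 4.82-fold (3.32-7.22), and Erbb2, also a plexin B partner, at 2.83-fold (2.10-3.88). On the mesenchymal side were Kdr, the main Vegfa receptor, at least 48.6-fold higher, Vegfc, the growth factor that binds Nrp2, 26.1-fold (16.6-43.4) higher, Itga1, an integrin chain of the Sema7a receptor, 16.4-fold (10.5-26.8) higher, and Mical2, an actin-oxidising enzyme of the MICAL family, 11.5-fold (8.58-15.7) higher. Kdr gave 74 UMIs in E15.5 mesenchyme and none in epithelium, beside 74 UMIs of the endothelial list there, and their relation was not tested. Vegfa, the ligand of Nrp1 and Kdr, measured 46.0, 53.4, 40.4 and 124 CPM in epithelium and 82.6, 118, 75.6 and 307 CPM in mesenchyme by stage, and was higher in mesenchyme by 2-fold at E14.5 and P0. Met was higher in epithelium at all 4 stages, with 23.5, 31.4, 71.9 and 148 CPM there. The median log2 ratio of epithelium over mesenchyme for the tested genes of this list was -0.35, -0.10, 0.23 and 0.33 by stage, against -0.18, 0.02, -0.10 and 0.30 over all genes. Between P0 and E13.5 mesenchyme 9 of 27 were higher and 6 lower, beside 14.3% and 35.8% of all genes, and between P0 and E15.5 epithelium 4 of 29 were higher and 6 lower, beside 15.0% and 18.5%.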

How the data were processed

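Single-cell RNA-seq of the mammary gland of WT C57B6 female mice (C57 B6/N in the study's methods) was analysed, with 1 10x 3′ library a stage from E13.5 to P0. The authors had aligned the reads to mm10 and deposited matrices of UMI counts per gene and barcode, which were not normalized. Per the labels' processing notes Cell Ranger 6.0.0 was used, and the file header of the E15.5 matrix names 3.1.0. Barcodes under 5000 UMIs or over 6% mitochondrial UMIs were dropped, which left 1630 cells, and the kept cells of the libraries shared 0 barcodes. The study gated doublets out at the sort, which does not remove droplets that captured several cells. No doublet caller was run, so droplet doublets were not removed. Cells were split into epithelium and mesenchyme as described, counts were summed per library and tissue, and levels were divided by the summed UMIs of all genes. With 1 library a stage no test across samples was possible. Intervals are exact Poisson, conditional binomial and Clopper-Pearson intervals at 95%, for counting error only. Shares of cells were also taken after thinning each cell to 5000 UMIs. Sides within a tissue were taken from the mean z-score of each list, on the natural log of depth-scaled counts plus 1, and again with a margin of 0.25 over the next list. The size rule asked for 2-fold and 20 UMIs. All members were described, with values in every group for the 10 with the most UMIs after scaling to CPM per stage and for each member higher in 1 tissue at 2 or more stages, 19 in all. The pathway genes named were the 4 with the largest ratio in each direction at E15.5, and Kdr, Flt1, Vegfa and Met. The members, lists and rules were chosen with earlier results of these data known. Alternatives changed the UMI minimum, the mitochondrial maximum, the tissue rule, the depth, the averaging, the fold and the UMI sum, and left out the cell with the most UMIs. Leaving out cells with markers of other cell types, of pericytes, or with Krt1 and Krt10, was chosen after seeing the data. Promoter windows came from RefSeq (GRCm38.p6) and gene positions from GENCODE M21. Scripts were tested on simulated data and ran in Python 3.11.15 with numpy 2.4.6, scipy 1.17.1, pandas 2.3.3 and matplotlib 3.10.9.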

Additional observations from a re-analysis of the deposited data

Results flagged for a closer look

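For 3 members the tissue with the higher level was not the same at all stages, and the difference between stages was not tested, since each stage is 1 library. The ratio of epithelium over mesenchyme for Sema3c was 2.69, 3.17 and 3.63 at the embryonic stages in turn, and 0.142 at P0. For Sema3d it was 5.90, 9.37 and 7.72 before birth and 0.157 at P0. For Plxnd1 it was 7.90 (E14.5) and 2.00 (E15.5), the latter at the edge of the fold used, and 0.124 at P0. Stage cannot be told apart from library and dissection session for any of them, nor P0 from its different tissue dissociation.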

How the results depend on the processing

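Only ratios called at 2-fold or more between tissues, stages or sides were followed, so ratios near 1 were not checked for direction. None of the ratios followed changed direction under the settings that kept the fold and the UMI sum. Set against its value under each of these settings, such a ratio stayed within counting error 948 times and moved 33 times. Most moves came with thinning to 5000 UMIs, where 25 ratios moved and 66 stayed. With cells thinned to 5000 UMIs fewer members reached 20 UMIs: 1 was higher in epithelium and 4 in mesenchyme at E13.5, 3 and 2 at E14.5, 2 in epithelium at P0, 3 higher and 6 lower in P0 than in E13.5 mesenchyme, and 0 higher in P0 than in E15.5 epithelium. Of the 2 in P0 epithelium, 1 was among the 5 called before thinning, and the other, Sema3f, was not. With a sum of at least 50 UMIs the counts were 3 in epithelium and 5 in mesenchyme at E13.5, 1 in epithelium at P0, 3 higher in P0 than in E13.5 mesenchyme and 1 higher in P0 than in E15.5 epithelium. With a sum of at least 1 UMI, 10 members were higher in mesenchyme at E14.5. Without the cell with the most UMIs of each gene, and with a fold of 3, 1 member was higher in P0 than in E15.5 epithelium. With the margin of 0.25 between sides, Sema3c in P0 basal-list over luminal progenitor cells went from 2.01 to 1.91 and Plxnd1 in P0 Col15a1 over Pi16 cells from 2.32 to 1.93, both under 2-fold. No paired analysis was possible because each group has 1 library and the stages share no animals. The summed UMIs limit the members under 20 UMIs, most of all at E14.5, where few cells (45 and 31) left 13 of 31 not compared.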

Other observations

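Of the antisense genes of Plxna4, Plxna4os1 and Plxna4os3 had 0 UMIs in every group, and Plxna4os2 had 1 in E13.5 epithelium, E13.5 mesenchyme and P0 epithelium.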
